A study of Mus musculus with 4 samples.

Results

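The transcripts examined were 37 interferon-stimulated genes, listed by gene symbol from textbook knowledge and read from a count table of 23481 genes. The list was chosen with earlier results of these data known. All 37 symbols were found in the table. The cells were the 4T1-T line, which derives from 4T1 mouse mammary carcinoma, with Asns silenced. Asns encodes asparagine synthetase, which makes asparagine from aspartate, and its silencing was shared by both groups. One group was grown in DMEM without asparagine and the other in DMEM with asparagine, with 2 libraries each, named A and B in the labels. How Asns was silenced, whether the line was a single clone and how long the cells were grown were not stated in the labels. No group was treated with an interferon according to the labels, so the members were compared at the level the cells held in culture.

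Interferons are secreted proteins that cells release after sensing foreign or misplaced nucleic acid. Type I interferons bind the receptor pair Ifnar1 and Ifnar2, whose kinases Jak1 and Tyk2 phosphorylate Stat2. Stat2 acts with Irf9 in the complex ISGF3, which binds the interferon-stimulated response element (ISRE) in the promoters of antiviral genes. Interferon gamma acts on promoters with gamma-activated sites (GAS). Many of the induced genes are also transcribed at a low level without added interferon, in tumour cells as in others. The members comprise the transcription factors of the pathway, cytoplasmic RNA sensors, the IFIT, OAS, Mx and IFITM families, the ubiquitin-like modifier ISG15 with its ligases and protease, guanylate-binding proteins and a few further induced genes.

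The libraries without asparagine held 17977552 (A) and 22581543 (B) counts assigned to genes, and those with asparagine 23867011 (A) and 30260582 (B). The libraries without asparagine lay farther apart: over 12843 genes with enough counts to be tested, they had a Spearman correlation of 0.991 with each other, whereas those with asparagine had 0.998. Library B without asparagine was slightly nearer to the other group (0.992 to its A, 0.993 to its B) than to its own replicate (0.991). The spread between replicates without asparagine was thus not smaller than every difference between groups. Library A without asparagine had 0.985 with both libraries with asparagine. It also had the highest share of reads outside annotated features (56.6%, against 46.3% to 49.3% in the others), and its part in the values that follow was not tested beyond leaving it out. The ribosomal RNA precursor Rn45s took 3.53% and 1.66% of gene counts without asparagine and 0.884% and 1.18% with it, both libraries without being higher, and its part in the values was not tested. Epithelial marker transcripts were present in every library, with all 8 tested, Epcam called higher without asparagine, and a summed level of 829 to 1019 CPM (counts scaled to 1000000 effective gene counts). Of the 8 pan-leukocyte and lymphocyte markers none had enough counts to be tested, their sum was 0.492 to 1.03 CPM, and Cd3e had no reads.

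To show what the promoters of the members hold, the ISRE core was searched as GAAANNGAAA on both strands in the 250 bases before each RefSeq transcription start (RefSeq, build GRCm38.p6). A promoter was found for 29 of the 37 members. The core was present in 11 of these 29 members (37.9%), against 299 of 10079 tested genes with a promoter (2.97%) and 978 of all 32851 promoter windows of that length (2.98%). The GAS core, searched as TTCNNNGAA, was present in 4 of the 29 members (13.8%) and in 7.15% of tested genes. The matches describe letters only, since no binding was measured here. The following 6 members are shown because they held the core and had enough counts to be tested, and had the smallest p-values among such members. Each stretch runs 5′ to 3′ on the strand of the gene, and capitals mark every base covered by a match, on either strand, so that TTTCNNTTTC is the core read on the opposite strand.
Gbp3, chr3:142559969-142560043, plus strand: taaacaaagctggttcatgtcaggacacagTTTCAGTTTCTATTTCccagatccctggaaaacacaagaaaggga
Stat2, chr10:128270248-128270315, plus strand: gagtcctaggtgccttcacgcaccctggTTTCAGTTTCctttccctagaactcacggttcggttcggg
Isg15, chr4:156200845-156200926, minus strand: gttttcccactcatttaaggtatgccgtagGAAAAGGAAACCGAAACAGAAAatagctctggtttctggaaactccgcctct
Ifit1, chr19:34640755-34640843, plus strand: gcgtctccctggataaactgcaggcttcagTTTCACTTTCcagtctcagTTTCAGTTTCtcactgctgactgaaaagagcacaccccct
Bst2, chr8:71537557-71537632, minus strand: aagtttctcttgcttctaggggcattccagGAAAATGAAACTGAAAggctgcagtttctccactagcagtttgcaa
Oas3, chr5:120777695-120777764, minus strand: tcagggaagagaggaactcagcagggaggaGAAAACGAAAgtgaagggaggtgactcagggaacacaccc

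The Isg15 stretch held 3 overlapping matches, those of Gbp3 and Bst2 held 2 overlapping matches each, that of Ifit1 held 2 separate ones, and those of Stat2 and Oas3 held 1 each. The first match began 45 bases before the start in Gbp3, 75 in Oas3, 78 in Isg15, 104 in Ifit1, 130 in Bst2 and 222 in Stat2. The genes with a match did not share a direction. Gbp3 and Bst2 had higher CPM without asparagine, and Stat2, Isg15, Ifit1 and Oas3 had lower CPM. Over the 9 tested members with a match, the median log2 fold change (without minus with asparagine) was -0.25, with 5 below 0 and 4 above. Over the 16 tested members with a promoter and no match it was 0.02, with 8 on each side.

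No listed gene was called different between the groups. Of the 37 members 30 had enough counts to be tested, and none of these 30 was called higher or lower at an adjusted p of 0.05 (edgeR quasi-likelihood test, Benjamini-Hochberg over 12843 genes). Over all tested genes 99 were called higher without asparagine (0.771%) and 138 lower (1.07%), or 1.85% in all. No member was called by the DESeq2 Wald test or by limma-voom. At an unadjusted p of 0.05, edgeR placed 4 members higher and 7 lower of 30, against 8.65% and 9.48% of all tested genes. DESeq2 placed 3 higher and 2 lower at that level, and limma-voom 4 and 7.

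The direction was mixed within the list. Log2 fold changes ran from -1.08 to 0.72 with a median of -0.04, beside a median of 0.01 over all tested genes, and 14 members lay above 0 and 16 below. Both libraries without asparagine lay above both with it for 6 members and below both for 13, while 11 overlapped. The same was true of 26.1% and 26.4% of all tested genes. The summed level of the members was 765 and 844 CPM without asparagine, against 771 and 841 CPM with it, and it overlapped between the groups. Ifitm3, Trim25 and Ifitm2 made up most of that sum. In bulk RNA, fewer cells with a transcript and less of it per cell cannot be told apart.

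**Figure D1:**
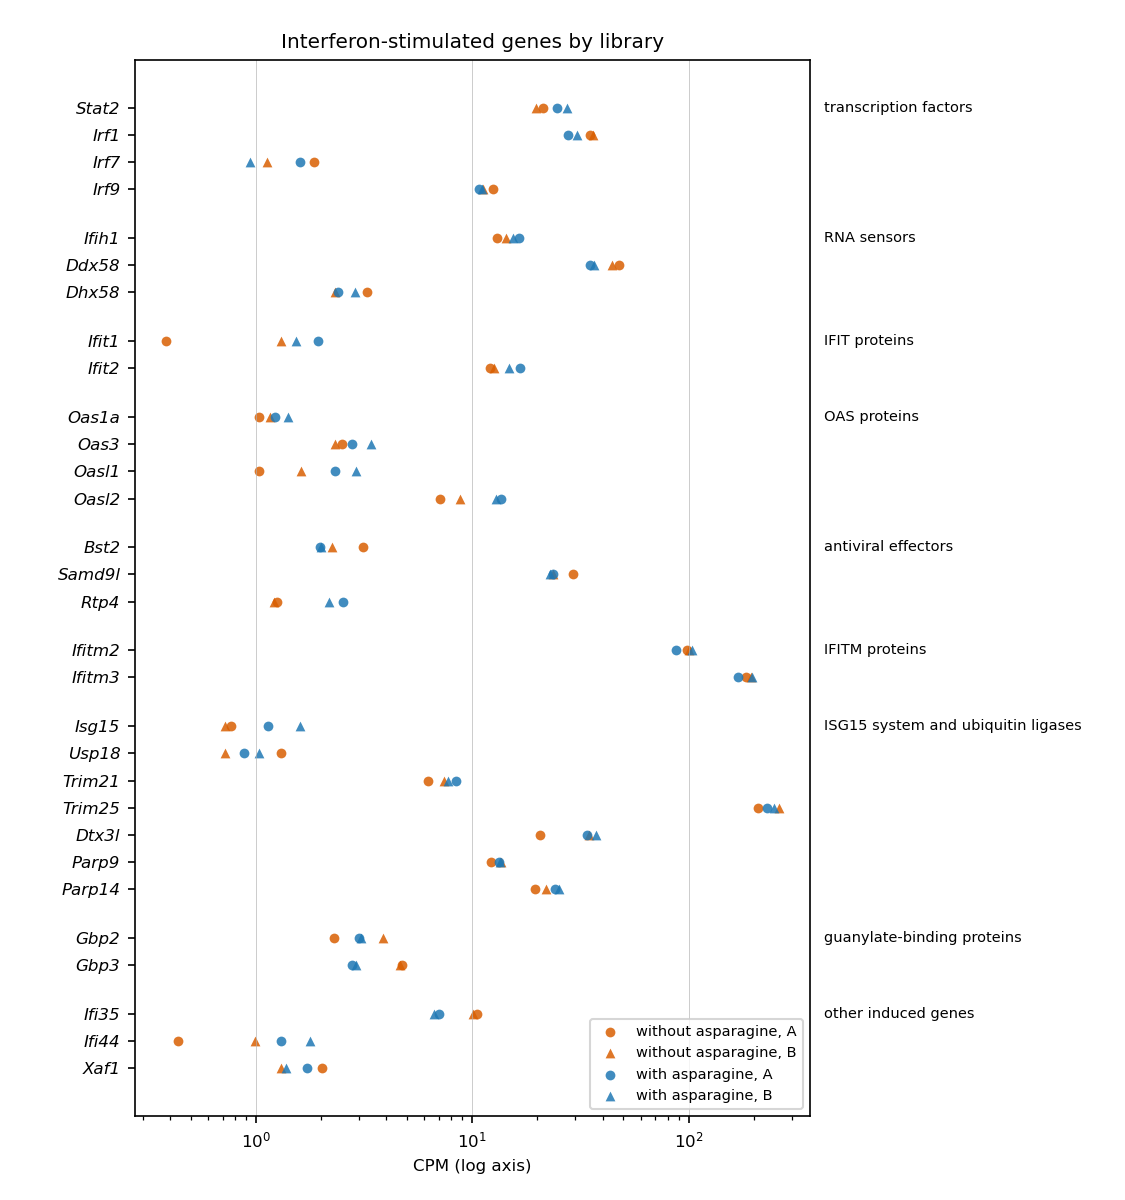
Level of each of the 30 tested interferon-stimulated genes in every library, in CPM on a log axis, grouped by role. Orange marks libraries without asparagine and blue those with it, circles library A and triangles library B. The orange and blue points are apart for Oasl2, Gbp3 and Ifi35 and overlap for Trim25, Ifitm2 and Ifitm3, the most abundant members.

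The transcription factors differed in direction. Stat2 (chromosome 10, 128270559 to 128292849), a subunit of ISGF3, had 21.3 and 19.7 CPM without asparagine, against 24.6 and 27.5 CPM with it. The groups did not overlap, and the log2 fold change was -0.35 ± 0.12 (SE, n = 2 libraries a group; edgeR adjusted p = 0.217). Irf9, the DNA-binding subunit of ISGF3, had 12.4 and 11.2 CPM without asparagine, against 10.7 and 11.1 CPM with it, a difference of 0.12 on the log2 scale (adjusted p = 0.683). Irf1, a factor that interferon gamma induces, had 34.8 and 36.1 CPM without asparagine, against 27.8 and 30.6 CPM with it. Its libraries without asparagine were both the higher ones, with a log2 fold change of 0.28 ± 0.11 (adjusted p = 0.260). Irf7, which drives the later wave of interferon alpha genes, was low in all libraries, at 0.934 to 1.85 CPM. Stat2 and Irf9, which act in 1 complex, therefore lay on opposite sides of 0 in these libraries.

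Of the cytoplasmic RNA sensors, Ddx58, which encodes RIG-I, had the smallest p. Ddx58 (chromosome 4, 40203773 to 40239828) had 47.6 and 44.2 CPM without asparagine, against 34.9 and 36.5 CPM with it. Both libraries without asparagine were higher, with a log2 fold change of 0.36 ± 0.11 (edgeR adjusted p = 0.163). Ifih1, which encodes the sensor MDA5, had 13.0 and 14.4 CPM without asparagine, against 16.5 and 15.4 CPM with it, with a log2 fold change of -0.22 (adjusted p = 0.415). Dhx58, which encodes LGP2, a relative of both that lacks their signalling domain, was at 2.33 to 3.27 CPM and overlapped. The sensors thus included genes on both sides of 0.

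The IFIT proteins bind viral RNA and block its translation, and their genes lie together on chromosome 19. Ifit2 (34550694 to 34576419) had 12.04 and 12.6 CPM without asparagine, against 16.6 and 14.8 CPM with it. The groups did not overlap, and the log2 fold change was -0.35 ± 0.13 (edgeR adjusted p = 0.240). Ifit1, described singly after its values were seen, had 7 and 29 reads without asparagine and 46 in each library with it, or 0.382, 1.30, 1.93 and 1.53 CPM in that order. Its log2 fold change of -0.99 ± 0.49 (adjusted p = 0.340) had a wide error, and library A without asparagine was the low one. Ifit3 had 6 to 12 reads in every library and was not tested. About 51.2% of the 50-base stretches of Ifit3 transcripts also occur in another gene, mainly its copy Ifit3b, so its count is uncertain.

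The 4 tested OAS genes of the list all lay below 0. OAS enzymes make short 2′-5′ linked adenylate chains that switch on RNase L, while the OAS-like proteins Oasl1 and Oasl2 belong to the same family. All 4 tested members had both libraries without asparagine below both with it, as did 26.4% of all tested genes, and their median log2 fold change was -0.54. None passed the test. Outside the list, Oas1b had a log2 fold change of 0.07 and its groups overlapped. Oas1g had -0.52 and Oas1c -1.15, and edgeR called none of these further OAS genes. The summed level of the listed OAS genes, untested Oas2 included, was 11.7 and 14.0 CPM without asparagine, against 20.2 and 20.7 CPM with it. Most of it was Oasl2. The genes were listed together for their role, and with 13 of 30 members in the same position this pattern has no test of its own.

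Oasl2 (chromosome 5, 114896936 to 114912234, plus strand) had the smallest p of the members. It stood at 7.08 and 8.81 CPM without asparagine, against at 13.5 and 12.9 CPM with it. The means were 7.95 ± 1.22 and 13.2 ± 0.465 CPM (SD, n = 2), with a log2 fold change of -0.73 ± 0.16 (edgeR adjusted p = 0.0854). The level with asparagine was 1.65 times that without, and the groups did not overlap. Its neighbour Oasl1 (chromosome 5, 114923240 to 114937915) had fewer reads, with 1.04 and 1.61 CPM without asparagine, against 2.31 and 2.90 CPM with it. The Oasl1 log2 fold change was -0.96 ± 0.31 (adjusted p = 0.179); the gene was named below the abundance set for single values, after its values were seen. Oas3 ran from 2.33 to 3.40 CPM and Oas1a from 1.04 to 1.40 CPM. Oas2 had 1 to 8 reads and was not tested. For Oas1a, 57.6% of 50-base stretches also occur in other genes, Oas1g and Oas1b among them. Its reads may therefore have been set aside as not uniquely aligned or given to a copy.

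Among the antiviral effectors the Mx GTPases and viperin were close to absent. Mx1 had no reads in any library, which allows up to 0.164 and 0.134 CPM without asparagine, against 0.126 and 0.100 CPM with it (3 reads per library, counting error only). Mx2 had 1 to 3 reads, Rsad2, which encodes viperin, 2 to 11, and Cmpk2, its neighbour on chromosome 12, 3 to 6, and none of these was tested. At this depth differences in these 4 genes were not detectable. Samd9l, a restriction factor, had 29.2 and 23.5 CPM without asparagine, against 23.7 and 22.8 CPM with it, and the groups overlapped (log2 fold change 0.18, edgeR adjusted p = 0.521). Bst2, which encodes tetherin, ran from 1.98 to 3.11 CPM. Rtp4 had 1.25 and 1.21 CPM without asparagine, against 2.52 and 2.17 CPM with it, with a log2 fold change of -0.92 ± 0.27 (adjusted p = 0.154). Rtp4 was also named after its values were seen.

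The IFITM proteins sit in membranes and restrict virus entry, and 2 of the 3 genes on chromosome 7 were among the most abundant members. Ifitm3 had 184 and 195 CPM without asparagine, against 170 and 196 CPM with it. Ifitm2 had 98.3 and 100 CPM without asparagine, against 87.2 and 104 CPM with it. Both overlapped between groups, with fold changes (without over with) of 1.04 for each and 95% intervals of 0.860 to 1.25 for Ifitm3 and 0.852 to 1.26 for Ifitm2. These intervals leave room for differences of up to about that size in either direction. Ifitm1 had 1 to 4 reads and was not tested. For Ifitm2, 48.5% of 50-base stretches are shared with other genes, Gm45717 among them.

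The ISG15 system and the ubiquitin ligases made up the largest role, with 7 tested members, 6 of them below 0 and a median log2 fold change of -0.23. Isg15 (chromosome 4, 156199424 to 156200818), the ubiquitin-like modifier after which the class is often named, was scarce. It had 14 and 16 reads without asparagine and 27 and 48 with it, or 0.763, 0.716, 1.14 and 1.601 CPM. The groups did not overlap, and the log2 fold change was -0.90 ± 0.35 (edgeR adjusted p = 0.243). Isg15 was described singly after its values were seen. Usp18, the protease that removes ISG15 and dampens receptor signalling, ran from 0.716 to 1.31 CPM and overlapped.

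Trim25, a ligase for RIG-I and for ISG15 conjugation, was the member with the highest CPM and did not separate the groups. It had 209 and 263 CPM without asparagine, against 231 and 248 CPM with it, a fold change of 0.986 with a 95% interval of 0.792 to 1.23. Trim21, a cytosolic antibody receptor and ligase, had 6.27 and 7.42 CPM without asparagine, against 8.41 and 7.71 CPM with it. Its groups did not overlap, though the gap between the nearest libraries was small. Dtx3l, a ligase that works with Parp9, had 20.7 and 34.8 CPM without asparagine, against 33.8 and 37.5 CPM with it (log2 fold change -0.36 ± 0.23, edgeR adjusted p = 0.433). Only library A without asparagine was low for Dtx3l. Its partner Parp9 had 12.2 and 13.6 CPM without asparagine, against 13.3 and 13.4 CPM with it. Parp14, an ADP-ribosyltransferase beside them on chromosome 16, had 19.5 and 21.9 CPM without asparagine, against 24.1 and 25.2 CPM with it, a fold of 0.841 (adjusted p = 0.336). Dtx3l and Parp9 overlap on opposite strands, and without a stated strand setting reads in the overlap cannot be told apart.

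Guanylate-binding proteins are GTPases that attack the membranes around intracellular microbes. Gbp3 (chromosome 3, 142560026 to 142573209) had 4.74 and 4.65 CPM without asparagine, against 2.77 and 2.90 CPM with it. The replicates lay close together and the groups apart, with a log2 fold change of 0.72 ± 0.20 (edgeR adjusted p = 0.138), the highest of the members. Gbp3 was named singly after its values were seen. Gbp2 ran from 2.29 to 3.85 CPM and overlapped.

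Of the further induced genes, Ifi35 (chromosome 11, 101448407 to 101458698) had 10.5 and 10.1 CPM without asparagine, against 6.98 and 6.64 CPM with it. The groups did not overlap, and the log2 fold change was 0.60 ± 0.15 (edgeR adjusted p = 0.115). Ifi35 overlaps exons of Gm11626 on the opposite strand and shares 10.4% of its 50-base stretches with it. Ifi44 had the most negative log2 fold change of the tested members, -1.08 ± 0.42 (adjusted p = 0.249), and was named after its values were seen. Its counts were small, with 8 and 22 reads without asparagine and 31 and 53 with it. Xaf1, which binds the apoptosis inhibitor XIAP, ran from 1.30 to 2.02 CPM and overlapped.

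**Figure D2:**
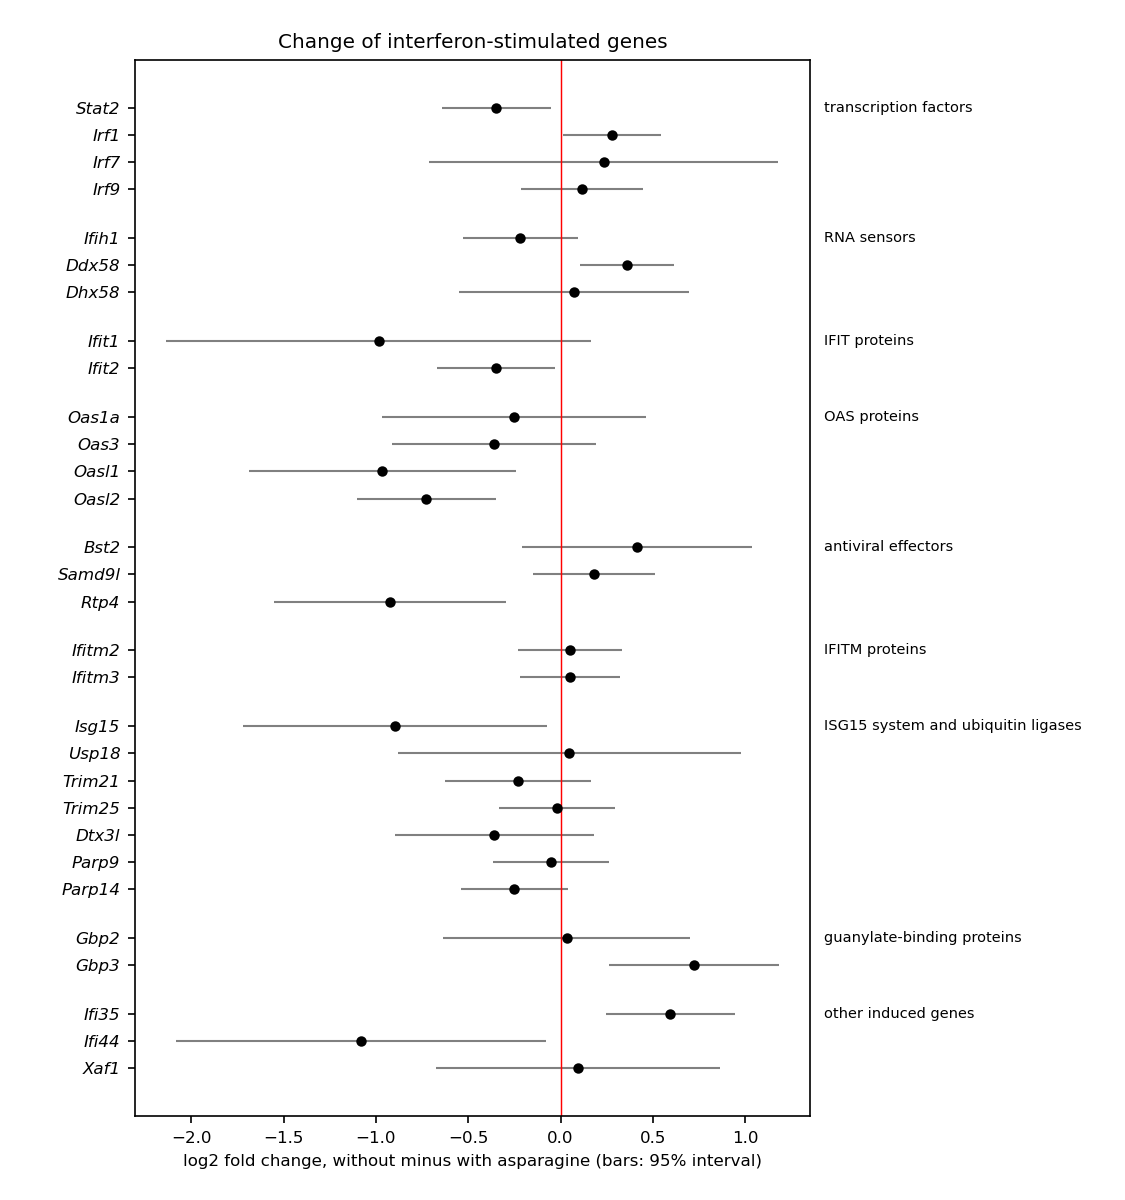
Log2 fold change (without minus with asparagine) of the 30 tested interferon-stimulated genes by role, with unadjusted 95% intervals from the edgeR fit as bars and the red line at 0. Points lie on both sides of the line, from -1.08 for Ifi44 to 0.72 for Gbp3, and intervals are widest for genes with few reads such as Ifit1 and Ifi44.

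Without asparagine, Ddx58, Irf1, Gbp3 and Ifi35 were the members above 0 at an unadjusted p of 0.05, and Stat2, Ifit2, Oasl1, Oasl2, Rtp4, Isg15 and Ifi44 were those below. None passed adjustment in the 4-library test. The outcome depended on the unlike libraries without asparagine. With library A of that group left out, the median log2 fold change of the members was -0.13. With library B of that group left out it was -0.25. In those fits the remaining library without asparagine was assumed to vary like those with asparagine. Calls over all genes grew in both fits, so calls of single members from them are not listed.

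Per kilobase of the longest transcript, the levels of the members spread widely. Ifitm3 was highest, with a mean over the 4 libraries of 275 CPM per kilobase, followed by Ifitm2 at 149 and Trim25 at 42.5. Irf1 at 15.1 and Ddx58 at 10.5 came next, and then Ifi35 at 6.28, Dtx3l at 5.96, Stat2 at 5.29 and Samd9l at 4.65. Isg15 was at 1.39, and Mx1 had no reads. Some members often used as a readout of interferon exposure, namely Isg15, Ifit1, Ifit3, Mx1, Mx2, Rsad2, Oas2 and Usp18, were all below 2 CPM in every library. Other induced members of the same families were higher, such as Ifit2 at 12.04 to 16.6 CPM and Oasl2 at 7.08 to 13.5 CPM. In mean CPM over the 4 libraries, Trim25 lay at percentile 93.0 of tested genes and Ifitm3 at 90.4, while Isg15 lay at 8.19 and Usp18 at 7.69.

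To place the members in their pathway, 5 further lists of ligands, receptors and kinases, nucleic acid sensing, negative regulators and other inducible genes were read from the same fit. These lists too were chosen with earlier results of these data known, so their counts and shares are descriptions only. Of the 138 genes of these lists in the table, 105 were tested, none rose without asparagine and 6 fell (edgeR), against 0.771% and 1.07% of all tested genes. At an unadjusted p of 0.05, 4 lay higher and 20 lower, against 8.65% and 9.48% of all tested genes. Their median log2 fold change was -0.15, with 36 above 0 and 69 below, beside 0.01 over all tested genes.

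Interferon genes themselves were scarcely transcribed. Of 19 ligand genes present, 8 had no reads in any library and 2 were tested, neither of them called. Ifna13 had the smaller p, with 2.45 and 2.15 CPM without asparagine, against 1.30 and 0.801 CPM with it (log2 fold change 1.14 ± 0.32, edgeR adjusted p = 0.149). For Ifna13, 15.3% of 50-base stretches also occur in other interferon alpha genes. All 9 receptor and kinase genes were tested and none was called. Ifngr1, the ligand-binding chain of the interferon gamma receptor, had 29.1 and 27.0 CPM without asparagine, against 22.5 and 22.7 CPM with it (fold 1.24, adjusted p = 0.225). Among 18 tested negative regulators edgeR called none, and Socs3, an inhibitor of Jak kinases, had the smallest p, with 5.50 and 8.01 CPM without asparagine, against 12.02 and 13.2 CPM with it (adjusted p = 0.0895). The DESeq2 Wald test called 2 of the 18 lower, Socs3 (adjusted p = 0.0203) and Irf2bp2. That test called 271 of all 12843 tested genes lower, where edgeR called 138.

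Irf8 was the called gene of the sensing and signalling list, 1 of 18 tested. Irf8 (chromosome 8, 120736358 to 120756694) encodes an interferon regulatory factor best known from myeloid and B cells. It had 5.78 and 6.22 CPM without asparagine, against 15.6 and 18.0 CPM with it, so that the level with asparagine was 2.80 times that without (log2 fold change -1.49 ± 0.15, edgeR adjusted p = 0.00830). Both libraries without asparagine lay well below both with it. Transcripts of the leukocyte marker Ptprc were between 0.168 and 0.467 CPM in the 4 libraries. The 8 macrophage and monocyte markers in the table summed to 16.4 and 16.4 CPM without asparagine, against 14.4 and 14.9 CPM with it, and none of the 4 that were tested was called. Those 4 were present in every library, with Cd68 at 5.6 to 6.9 CPM, Cd14 at 3.8 to 4.5, Mrc1 at 3.2 to 4.7 and Csf1r at 0.49 to 0.98. Among the markers not tested, Lyz2 had no reads in 3 libraries, and Emr1 had none in either library without asparagine. Of the plasmacytoid dendritic cell markers, Siglech had at most 0.0545 CPM, and that list also contains Irf8 and Bst2. Its sum of 214 CPM in both libraries without asparagine and 301 and 293 CPM with it was mostly Tcf4, a factor that many cell types transcribe. The part of other cells in the Irf8 values was not tested.

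The list of other inducible genes, 73 in the table, had 58 tested members. None rose and 5 fell without asparagine in the edgeR test, against 1.07% of all tested genes that fell. Of the 58, 14 lay above 0 and 44 below, and the median log2 fold change was -0.26, with a range of -1.27 to 0.31. Both libraries without asparagine lay below both with it for 32 of the 58 and above both for 6, against 26.4% and 26.1% of all tested genes. Their summed level was 1425 and 1507 CPM without asparagine, against 1790 and 1772 CPM with it, and the groups did not overlap. An ISRE core was present in 18 of the 47 tested genes of this list with a promoter (38.3%), close to the share among the members. The listed members and these genes thus had like promoter shares beside medians of -0.04 and -0.26 over all libraries. With library A without asparagine left out, the medians were -0.13 for the members and -0.17 for these genes. They were -0.25 and -0.28 without library B of that group. With library A or B with asparagine left out, the members were at -0.07 and -0.06, and these genes at -0.25 and -0.28. The gap between the medians therefore depended on which libraries were kept. The difference between the lists was not tested. A fibroblast marker, Pdgfra, fell as well, from 42.8 and 40.7 CPM with asparagine to 18.1 and 22.8 CPM without. The other 6 fibroblast and endothelial markers had at most 0.491 CPM in any library, among them Dcn with no reads in 3 libraries, and the list summed to 18.8 and 23.3 CPM without asparagine and 43.4 and 41.7 CPM with it. The part of such markers in the values of the inducible genes was not tested.

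**Figure D3:**
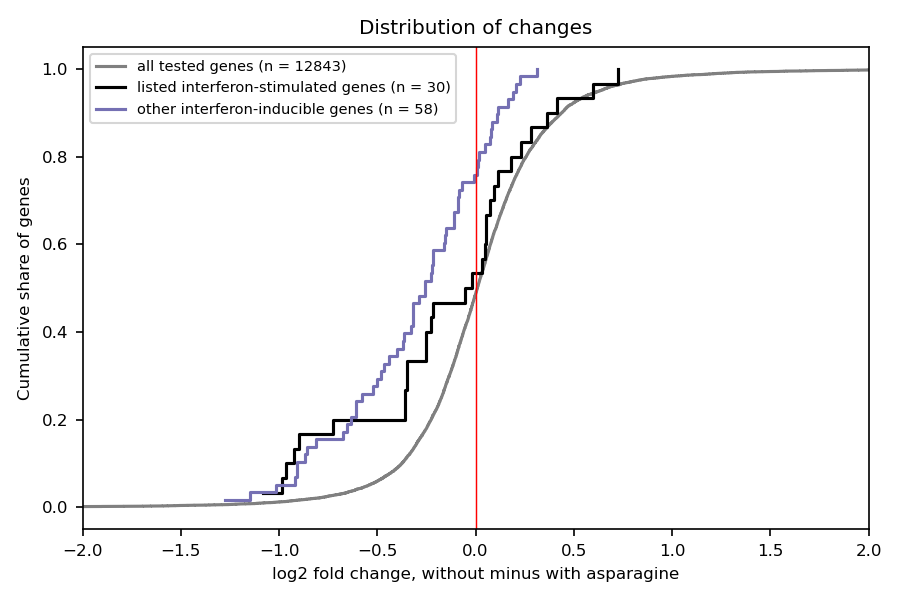
Cumulative share of genes (y axis, 0 to 1) by log2 fold change, without minus with asparagine (x axis), for all tested genes in grey, the 30 tested listed interferon-stimulated genes in black and the 58 tested other interferon-inducible genes in purple. The axis is limited to -2 to 2, and the red line marks 0. The black line crosses 0 near the grey one, with medians of -0.04 and 0.01, and the purple line lies to the left, with a median of -0.26. All libraries were used. The black and purple medians lay closer together when either library without asparagine was left out.

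Of the genes of this list that fell, Lgals3bp had the most negative log2 fold change. Lgals3bp (chromosome 11, 118392751 to 118402092) encodes a secreted glycoprotein that binds galectin 3. It had 40.9 and 48.4 CPM without asparagine, against 82.4 and 86.3 CPM with it (log2 fold change -0.92 ± 0.12, edgeR adjusted p = 0.0190). Gbp7 (chromosome 3, 142530342 to 142550149), a guanylate-binding protein next to Gbp3, had 7.14 and 7.56 CPM without asparagine, against 13.7 and 13.0 CPM with it (-0.86 ± 0.14, adjusted p = 0.0368). The neighbours Gbp7 and Gbp3 thus stood on opposite sides of 0. Slfn8 (chromosome 11, 83002158 to 83020810), of the Schlafen family, had 20.5 and 26.5 CPM without asparagine, against 42.7 and 40.1 CPM with it (-0.81 ± 0.15, adjusted p = 0.0472). It shares 14.6% of its 50-base stretches with Slfn10-ps and Slfn9.

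The HIN-200 genes Ifi203 and Mndal, which lie on chromosome 1 and encode nuclear proteins with DNA-binding HIN domains, also fell, and were named after their values were seen as the remaining called genes of the list. Ifi203 (173920407 to 173942672) had 95.4 and 94.7 CPM without asparagine, against 150 and 140 CPM with it (log2 fold change -0.61 ± 0.10, edgeR adjusted p = 0.0368). Mndal (173849126 to 173942491) had 47.1 and 46.5 CPM without asparagine, against 73.2 and 72.2 CPM with it (-0.63 ± 0.10, adjusted p = 0.0345). Their exons overlap on the same strand in the GENCODE M21 annotation, while their RefSeq extents do not overlap. Which annotation the submitters counted on was not stated. Ambiguous reads were kept in a row of their own, so reads in any such overlap may be missing from both counts. Of the 50-base stretches, 12.4% for Ifi203 and 19.6% for Mndal also occur in other genes, each other among them.

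Irf8 was called in every alternative run. Lgals3bp, Gbp7, Slfn8, Ifi203 and Mndal were each below 0 in every alternative, but none of these 5 was called once a library with asparagine was left out. Without library A of that group their adjusted p ran from 0.108 for Lgals3bp to 0.629 for Ifi203, and without library B from 0.163 for Lgals3bp to 0.449 for Mndal. Slfn8 also missed the threshold with DESeq2 size factors (adjusted p = 0.0509) and with a filter of 5 CPM in 2 libraries (adjusted p = 0.05001).

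**Figure D4:**
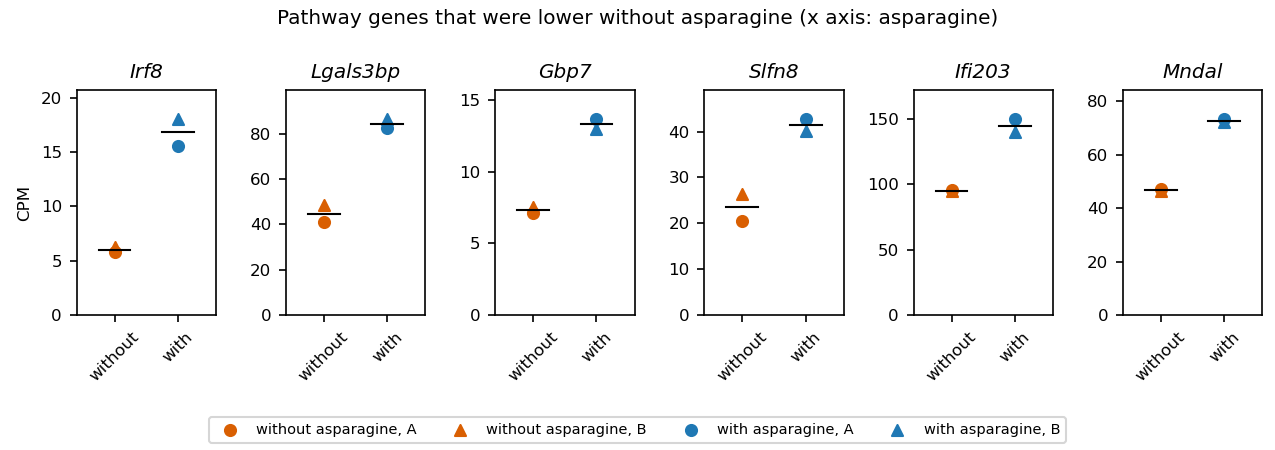
CPM (y axis, from 0, scaled for each gene) of the 6 pathway genes that fell without asparagine, in each library. Orange marks libraries without asparagine, blue those with it, circles library A, triangles library B, and bars the group means. In each of the 6 panels both orange points lie below both blue points.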

How the data were processed

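Total RNA of 4 libraries was purified with a Qiagen kit and amplified with NuGEN Ovation RNAseq V2, per the labels' protocols. The deposited values were raw read counts per gene symbol, made with Bowtie2 and HTSeq on build mm10, per the submitters' processing notes. Versions, annotation and strand use were not stated. HTSeq summary rows, 60.1% to 70.0% of all reads, were left out. Reads counted as ambiguous or not uniquely aligned were among them. Bowtie2 does not by itself split reads over introns, so short exons may be under-counted.

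Counts of genes passing filterByExpr (minimum count 10, total 15) were scaled by TMM, then compared by edgeR 4.0.16 (R 4.3.3) on 2 groups, with Benjamini-Hochberg adjustment over 12843 genes and a threshold of 0.05. The SE is the log2 fold change divided by the square root of F. The 95% intervals come from the same fit and are not adjusted. The labels do not say whether A and B were separate cultures. The p-values set the difference between groups against the spread within groups, estimated with the help of all tested genes. Whether that spread is between cultures or only technical is therefore not known.

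The members and lists were chosen with earlier results of these data known. Members called or with a mean of 5 CPM or more were given in every library, the others by range. From each pathway list up to 3 called genes with the largest change were named, or the gene with the smallest p. Promoters came from RefSeq (GRCm38.p6, the same build as mm10), gene coordinates, exon overlaps and shared 50-base stretches from GENCODE M21. The alternatives were DESeq2 1.42.0 and limma 3.58.1, other scaling and filters, a block for the letter, and each library left out.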

Additional observations from a re-analysis of the deposited data

How the results depend on the processing

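With 2 libraries a group, an exact test of a single value cannot go below p = 0.333, so the calls rest on the fit over all genes. The median of the members was -0.04 in the fit. Between single libraries, the median difference without minus with asparagine ran from -0.242 to -0.0853 over the 4 pairs (SD 0.07). Each pair thus lay below the fitted value, and since the pairs share libraries their SD is not an independent spread. The fitted median was 0.008 under upper quartile scaling, which moved the median of all genes to 0.06, and 0.0015 with no filter on low counts. Without each library in turn it ran from -0.246 to -0.0613. With no filter, 2 members were called higher (Gbp3 and Ifi35) and 3 lower (Oasl1, Oasl2 and Rtp4), and 1 pathway gene higher and 17 lower. Leaving out each library gave 0 to 4 members higher and 0 to 10 lower, and 0 to 7 pathway genes higher and 1 to 29 lower. Over all genes the calls were 28 higher and 30 lower without library A with asparagine, and 24 and 24 without library B, against 99 and 138 with all 4. They were 615 and 719 with no filter and 193 and 271 by DESeq2. The letters A and B are shared by the groups, but the labels tie them to no batch, and with 2 pairs the check (a correlation of deviations of 0.123 over 12843 genes) cannot show pairing. The letter as a replicate block gave 344 higher and 472 lower calls over all genes, 1 member lower (Oasl2, edgeR adjusted p = 0.0147), and 1 pathway gene higher and 12 lower.

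Of 376 values of the 30 members under alternatives, 334 kept their direction and side of the threshold, 26 became called and 16 changed sign, in 9 members. The 11 members at an unadjusted p of 0.05 had no change of sign. They were picked for a small p in these same counts, so this is no independent check. With each library left out, log2 fold changes ran from -0.15 to 0.65 for Irf7, -0.19 to 0.30 for Dhx58, -0.0734 to 0.184 for Ifitm2, -0.0533 to 0.158 for Ifitm3, -0.43 to 0.43 for Usp18, -0.20 to 0.13 for Trim25, -0.136 to 0.0159 for Parp9, -0.41 to 0.34 for Gbp2 and -0.24 to 0.39 for Xaf1. Usp18 was at -0.0105 by limma-voom and Trim25 at 0.0241 under upper quartile scaling. The cause of these changes was not tested.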

Other observations

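The families of Mndal, Ifi203 and Slfn8 were read gene by gene after their values were seen. On chromosome 1, the HIN-200 gene Ifi204, known as a binder of cytosolic DNA, had 94.9 and 110 CPM without asparagine and 132 and 133 CPM with it (edgeR adjusted p = 0.169), so that its groups did not overlap. Mnda had 19.8 and 19.0 CPM without asparagine and 20.6 and 22.1 CPM with it, and Ifi202b, which lacks the pyrin domain of its relatives, had 28.2 and 21.4 CPM without and 33.3 and 30.02 CPM with it. Pyhin1 had 1.80 and 1.48 CPM without asparagine and 3.07 and 2.90 CPM with it. On the other side of 0, Ifi205 had 0.763 and 0.716 CPM without asparagine and 0.588 and 0.667 CPM with it (adjusted p = 0.771), and Aim2, with 2 to 7 reads, was not tested. Of the 50-base stretches of Ifi204, 20.0% also occur in other genes, Mndal among them. Reads there may have been set aside as not uniquely aligned or given to another gene.

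Of the Schlafen genes on chromosome 11, Slfn2 had 1.09 and 1.12 CPM without asparagine and 2.69 and 2.67 CPM with it (edgeR adjusted p = 0.0678). Slfn10-ps, a pseudogene that shares sequence with Slfn8, had 6.65 and 6.04 CPM without asparagine and 11.8 and 10.1 CPM with it (adjusted p = 0.0730). Slfn9 had 204 and 200 CPM without asparagine and 262 and 244 CPM with it (adjusted p = 0.172). Slfn3 had 22.2 and 21.3 CPM without asparagine and 19.3 and 21.1 CPM with it (adjusted p = 0.659), and was thus the Schlafen gene among these 4 with its group mean higher without asparagine. Slfn4, Slfn5 and Slfn14, with at most 12 reads in any library, were not tested and also had higher means without asparagine. Slfn1, with at most 2 reads, was not tested and had a lower one.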
